A study of Sus scrofa with 35 samples.

Results

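Genes of endoplasmic reticulum (ER) protein folding and of the unfolded protein response were followed in whole blood of pigs under heat stress. The 10 genes chosen by name were XBP1, ATF4, ATF6, DDIT3, CALR, CANX, PDIA3, PDIA4, PDIA6 and HYOU1. The array carried 35 probes with one of these gene names, among 60305 distinct probes, and they covered 9 of the 10 genes because no probe was named PDIA4. The table of log2 expression values held 31 of the 35 probes among its 39072 probes, and all 31 were well above background on all 35 arrays.

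Secreted and membrane proteins are folded in the ER by chaperones and by enzymes that form disulfide bonds. When unfolded proteins build up there, the sensors ERN1 (also called IRE1), EIF2AK3 (PERK) and ATF6 start the unfolded protein response, which raises the folding capacity, slows translation and, when it persists, favours cell death through DDIT3 (CHOP). In blood, plasma cells are known for a large ER that depends on XBP1.

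RNA came from whole blood of 35 castrated male pigs of the breeds Creole (CR), Large White (LW) and their F1 cross. Blood was taken either under thermoneutral conditions (TN, 24 °C, with 5 CR, 6 F1 and 6 LW pigs) or after heat stress (HS, 6 pigs per breed). The sample labels gave 30 °C for HS, whereas the protocol gave 32 °C for 5 d and the study's methods allowed for 4 or 5 days. All pigs had entered the climatic room at 11 weeks of age, and TN pigs were slaughtered before the temperature was raised, so climate and time of sampling cannot be told apart. Expression is given as log2 intensity after quantile normalization, and a level can be compared between pigs for 1 probe but not between probes. HS was compared with TN by limma with breed in the model, and a probe was differentially expressed when its Benjamini-Hochberg adjusted p over all 39072 probes was below 0.05.

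Both PDIA6 probes, 1 of 2 PDIA3 probes and the HYOU1 probe had higher expression in HS pigs, by 0.30 to 0.36 on the log2 scale. Both DDIT3 probes were down-regulated, by 0.42 and 0.27 on the log2 scale. No CALR probe passed the test, 1 CANX probe was higher and another lower, and 1 probe each of XBP1 and ATF4 was lower while the other probes of these genes did not pass. In all, 10 of the 31 probes were differentially expressed over breeds (32.3%), beside 34.8% of all probes. Of these, 5 were higher under HS, beside 20.1% of all probes, and 5 were lower, beside 14.7%. With arrays scaled on the 75th percentile 12 of 32 probes passed, 8 higher and 4 lower, beside 34% of the 41466 probes then tested. The median HS effect was 0.03 over the 31 probes and 0.06 over all probes, so the set as a whole had a share of calls near that of the array.

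Some facts of the arrays bear on every result below. The 75th percentile of the processed intensity, before scaling between arrays, ran from 112 to 329 over the arrays. It was lowest in F1 pigs under TN (149.9 ± 28.3, mean ± SD, n = 6), against 238 ± 35.6 in F1 pigs under HS. In CR pigs it was 228 ± 66.5 under TN and 225 ± 54.6 under HS, and in LW pigs 204 ± 30.9 and 202 ± 29.6. The share of probes well above background was 60.0% ± 3.35 in F1 pigs under TN and 65.1% ± 1.59 in F1 pigs under HS. Of 20 measured erythroid marker genes, 12 were lower and 1 was higher under HS, with a median of -0.73, and 19 of the 20 were well above background on all arrays. The mean level of the erythroid list ran from 10.57 to 12.57 in F1 pigs under TN and from 9.13 to 11.08 under HS. It ran from 10.29 to 11.74 and from 9.74 to 11.49 in CR pigs, and from 10.75 to 11.61 and from 10.21 to 11.19 in LW pigs. In whole blood, fewer cells of a type and less RNA per cell cannot be told apart.

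Sequences are shown for probes where the reading of a gene depends on the probe, and for single probes of other genes that did or did not pass the test. Each is given 5′ to 3′ as in the scanner files. The XBP1 probes A_72_P488529 and A_72_P536555 are printed because they share 36 bases in a row, in capitals, and their HS effects over breeds had opposite signs, a difference that was not tested. The ATF4 probe is the one of 7 that was down-regulated, DDIT3 O11871 and PDIA3 A_72_P127691 were both differentially expressed, and the CALR probe was not.
XBP1 A_72_P488529: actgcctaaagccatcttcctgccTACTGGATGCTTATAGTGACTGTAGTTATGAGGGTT
XBP1 A_72_P536555: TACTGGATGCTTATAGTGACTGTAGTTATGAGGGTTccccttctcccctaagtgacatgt
ATF4 A_72_P567389: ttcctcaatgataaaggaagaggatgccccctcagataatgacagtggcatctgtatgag
DDIT3 O11871: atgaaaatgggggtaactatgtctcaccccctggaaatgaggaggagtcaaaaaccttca
CALR A_72_P402718: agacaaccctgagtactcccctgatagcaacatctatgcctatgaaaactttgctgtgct
PDIA3 A_72_P127691: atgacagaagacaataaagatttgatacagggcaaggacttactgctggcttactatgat

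**Figure D1:**
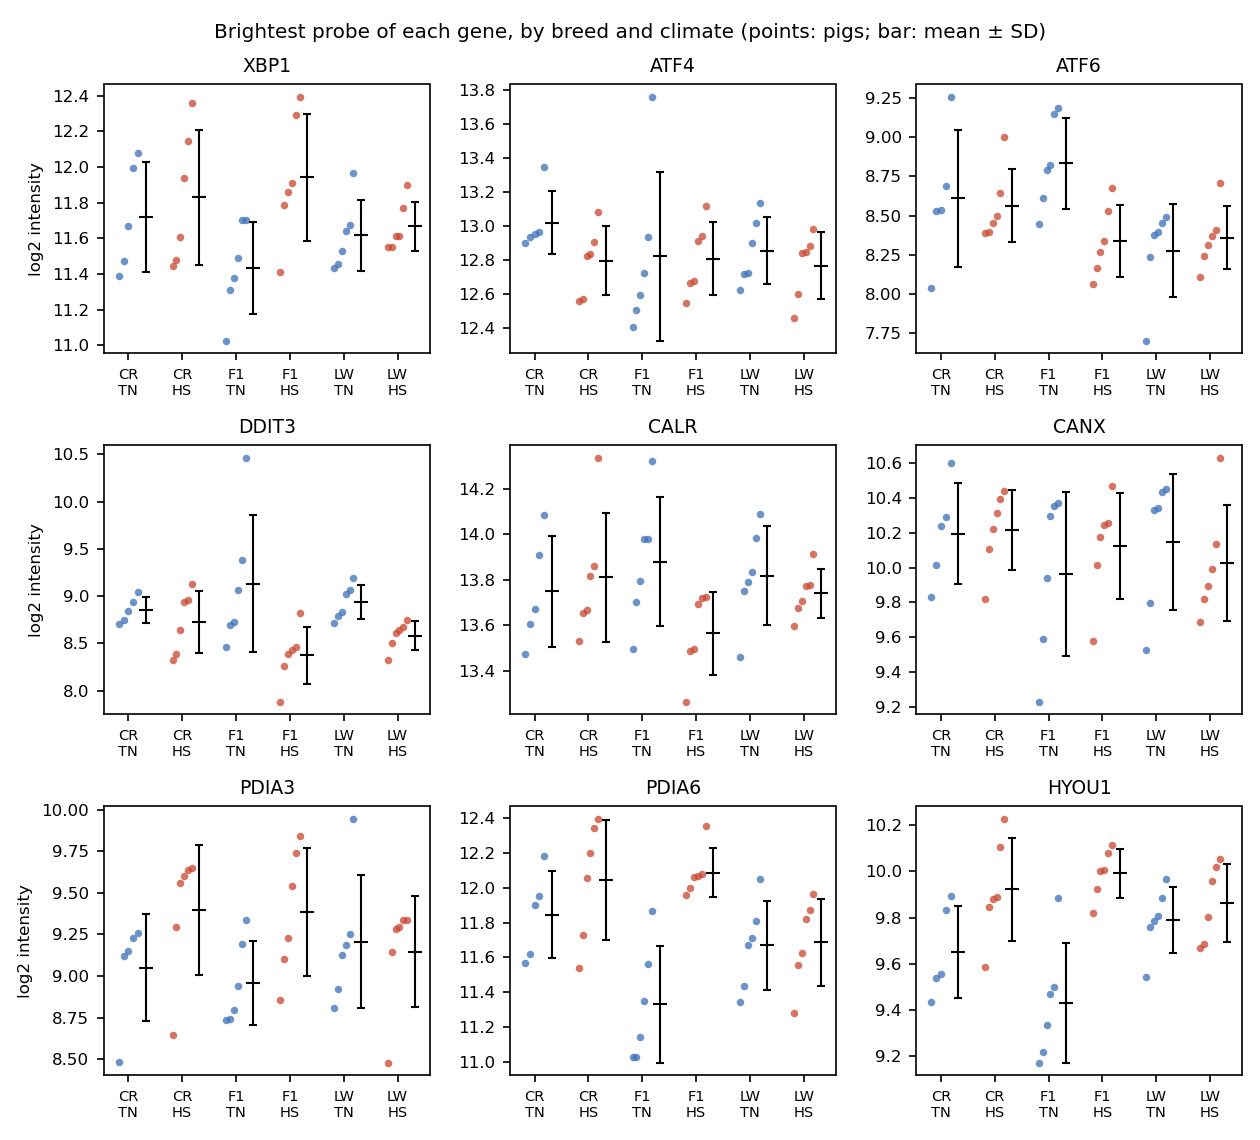
Log2 intensity of the brightest probe of each of the 9 measured genes, by breed (CR, F1, LW) and climate (TN in blue, HS in red). Points are pigs, placed from low to high within a group, and the bar gives the mean ± SD. The vertical axis differs between panels. PDIA6 had no overlap between the 2 F1 groups, whereas ATF4 and CANX levels of all groups overlapped.

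PDIA6, a protein disulfide isomerase that forms and rearranges disulfide bonds, was up-regulated under HS. Its brightest probe (O13091) had levels of 11.95, 11.57, 12.18, 11.62 and 11.90 in the 5 CR pigs under TN and ran from 11.54 to 12.40 around a median of 12.13 under HS. In F1 pigs it ran from 11.03 to 11.87 around 11.25 under TN and from 11.96 to 12.36 around 12.07 under HS. In LW pigs it ran from 11.34 to 12.05 around 11.69 under TN and from 11.28 to 11.96 around 11.73 under HS. All F1 pigs under HS thus lay above all F1 pigs under TN, whereas the groups overlapped in CR and LW pigs. Over breeds PDIA6 was higher by 0.33 ± 0.10 (SE) under HS, a 1.26-fold difference (limma, adjusted p = 0.0155), with 13 of 18 HS pigs above the TN mean of their breed. This difference was 0.15 with the erythroid level in the model (adjusted p = 0.459) and 0.10 without F1 pigs (adjusted p = 0.619). In F1 pigs the difference was 0.76 ± 0.16 (adjusted p = 0.000606), or 1.69-fold. The other PDIA6 probe (A_72_P374548) gave 0.35 ± 0.10 over breeds and 0.77 ± 0.16 in F1 pigs, also without overlap. These 2 probes of 31 without overlap in F1 pigs stand beside 3.59% of all probes that had no overlap in that direction. In either direction, 11.7% of all probes had no overlap in F1 pigs, and none of the other member probes did.

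HYOU1, a large chaperone of the ER lumen that also acts as a nucleotide exchange factor for the chaperone HSPA5, was up-regulated as well. Its 1 probe in the table (A_72_P203882) had levels of 9.89, 9.43, 9.83, 9.56 and 9.54 in CR pigs under TN and ran from 9.58 to 10.23 around 9.89 under HS. In F1 pigs it ran from 9.17 to 9.89 around 9.40 under TN and from 9.82 to 10.11 around 10.01 under HS. In LW pigs it ran from 9.54 to 9.97 around 9.80 under TN and from 9.67 to 10.05 around 9.88 under HS. A single F1 pig under TN reached the HS range. The difference was 0.30 ± 0.07 over breeds (limma, adjusted p = 0.00328), with 15 of 18 HS pigs above the TN mean of their breed, and 0.56 ± 0.11 in F1 pigs (adjusted p = 0.000567), or 1.48-fold. A pair of identical HYOU1 probes (60 of 60 bases) was not in the table of log2 values.

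PDIA3, the isomerase that works with CALR and CANX on glycoproteins and takes part in the loading of major histocompatibility complex class I, rose at 1 of its 2 probes. Probe A_72_P127691, printed above, had levels of 8.22, 8.30, 8.49, 8.14 and 8.31 in CR pigs under TN and ran from 8.10 to 8.89 around 8.59 under HS. It ran from 7.70 to 8.64 around 8.30 and from 8.50 to 9.11 around 8.71 in F1 pigs, and from 8.10 to 8.67 around 8.41 and from 8.38 to 9.02 around 8.67 in LW pigs, each time with TN before HS. Ranges overlapped in every breed, yet 16 of 18 HS pigs exceeded the TN mean of their breed. The difference was 0.36 ± 0.08 over breeds (limma, adjusted p = 0.00229), which was the smallest adjusted p of the 31 probes, and 0.48 ± 0.14 in F1 pigs (adjusted p = 0.00854). The brightest PDIA3 probe (O9249) gave 0.23 ± 0.12 over breeds (adjusted p = 0.117) and 0.43 ± 0.20 in F1 pigs (adjusted p = 0.0831). The mean of the 2 PDIA3 probes, A_72_P127691 included, passed over breeds (0.30, adjusted p = 0.00846) and in F1 pigs (0.45, adjusted p = 0.0132). O9249 itself passed over breeds with array weights (0.25, adjusted p = 0.0306) and in 3 of 35 fits that left out 1 pig. Those pigs were LW TN replicate 3 (0.29, adjusted p = 0.0346), CR HS replicate 1 (0.28, adjusted p = 0.0486) and LW HS replicate 1 (0.29, adjusted p = 0.04). Over the 35 fits its adjusted p reached 0.205. In F1 pigs O9249 passed with the slide as a block (0.54, adjusted p = 0.00598) and in 2 of 35 fits that left out 1 pig. Here the pigs were F1 HS replicate 2 (0.53, adjusted p = 0.0379) and F1 TN replicate 5 (0.50, adjusted p = 0.0499), and adjusted p reached 0.205.

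PDIA4, a further isomerase of the family, had no probe of that name. A probe without a gene name that the scanner files describe as PDIA4 differed by 0.02 ± 0.06 (limma, adjusted p = 0.762) and was well above background on 32 of 35 arrays. A probe described as PDIA6 but without a gene name was higher by 0.37 ± 0.09 (adjusted p = 0.00265), and by 0.67 in F1 pigs. Both were looked up after the values of the named probes were known and are not counted among the 31.

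DDIT3, the transcription factor CHOP that links prolonged ER stress with cell death, was down-regulated at both of its probes. The brightest (A_72_P157561) had levels of 8.93, 9.04, 8.71, 8.75 and 8.84 in CR pigs under TN and ran from 8.32 to 9.12 around 8.79 under HS. In F1 pigs it ran from 8.46 to 10.46 around 8.89 under TN and from 7.88 to 8.82 around 8.41 under HS. In LW pigs it ran from 8.72 to 9.19 around 8.93 under TN and from 8.32 to 8.75 around 8.62 under HS. Each of the 12 F1 and LW pigs under HS was below the TN mean of its breed, and 1 F1 pig under TN (replicate 4) stood above all other pigs. DDIT3 fell by 0.42 ± 0.13 over breeds (limma, adjusted p = 0.0111) and by 0.76 ± 0.21 in F1 pigs (adjusted p = 0.00552), or 1.69-fold. Without F1 TN replicate 4 the F1 difference was -0.49 (adjusted p = 0.0182). Probe O11871 fell by 0.27 ± 0.09 over breeds (adjusted p = 0.0221) and by 0.54 ± 0.15 in F1 pigs. A further DDIT3 probe identical to O11871 in all 60 bases was not in the table of log2 values.

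ATF4 is the transcription factor whose translation rises when PERK and related kinases phosphorylate the initiation factor EIF2S1, and DDIT3 is one of its targets. The brightest of 7 ATF4 probes (O139) had group means between 12.77 in LW pigs under HS and 13.02 in CR pigs under TN, and it differed by -0.10 ± 0.09 over breeds (limma, adjusted p = 0.376) and by -0.01 ± 0.16 in F1 pigs. The 6 other probes, O139 included, lay between -0.10 and 0.03 over breeds. Probe A_72_P567389 was down-regulated by 0.27 ± 0.09 over breeds (adjusted p = 0.0234) and by 0.58 ± 0.15 in F1 pigs (adjusted p = 0.00358). Its levels ran from 11.23 to 11.91 around 11.39 in F1 pigs under TN and from 10.65 to 11.27 around 10.85 under HS, so that the groups overlapped through 1 HS pig that lay above 2 TN pigs. Over breeds this probe lost the call when arrays were scaled on the 75th percentile (-0.24, adjusted p = 0.068).

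XBP1 encodes the transcription factor that ERN1 activates by splicing its mRNA and that drives genes of the secretory pathway. The scanner files do not tell which probe reads the spliced or the unspliced form. The brightest of 9 probes (A_72_P550986) had levels of 11.996, 11.39, 12.08, 11.67 and 11.47 in CR pigs under TN and ran from 11.44 to 12.36 around 11.77 under HS. In F1 pigs it ran from 11.02 to 11.70 around 11.43 under TN and from 11.41 to 12.39 around 11.88 under HS. In LW pigs it ran from 11.43 to 11.97 around 11.59 and from 11.55 to 11.90 around 11.61. The groups overlapped in every breed, and the gap between medians was widest in F1 pigs. The difference was 0.23 ± 0.10 over breeds (limma, adjusted p = 0.0732) and 0.51 ± 0.16 in F1 pigs (adjusted p = 0.0153), or 1.42-fold. Over breeds the brightest probe passed when arrays were scaled on the 75th percentile (0.25, adjusted p = 0.0446) or given weights (0.25, adjusted p = 0.0275), and in 6 of 35 fits that left out 1 pig (CR TN replicates 1 and 3, CR HS replicates 1 and 6, F1 HS replicate 4 and LW TN replicate 2, adjusted p from 0.0381 to 0.0498).

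Of the 9 XBP1 probes, 8 gave HS effects of 0.17 to 0.25 over breeds, with no call, and of 0.43 to 0.56 in F1 pigs, where 6 of them were up-regulated. The ninth, A_72_P536555, was instead down-regulated by 0.21 ± 0.08 over breeds (limma, adjusted p = 0.0294), with 15 of 18 HS pigs below the TN mean of their breed. Its call over breeds was lost without F1 TN replicate 4 (-0.19, adjusted p = 0.0514), without F1 HS replicate 4 (-0.19, adjusted p = 0.0507) and with arrays scaled on the 75th percentile (-0.19, adjusted p = 0.0612). The overlapping probe A_72_P488529 differed by 0.17 ± 0.12 over breeds (adjusted p = 0.246). Across the 35 pigs, with group means removed, the 8 other probes correlated among themselves at r = 0.63 to 0.97 (rho from 0.70 to 0.97), and all 28 pairs passed a permutation test. A_72_P536555 correlated with them at r = 0.03 to 0.42 (rho from 0.06 to 0.37), and 1 of 8 pairs passed. ATF4 showed the same kind of split, with r = 0.81 to 0.98 (rho from 0.68 to 0.94) among 6 probes and r = 0.08 to 0.21 (rho from -0.06 to 0.10) between those and A_72_P567389, where 0 of 6 pairs passed (smallest adjusted p = 0.352). These tests permuted pigs within groups 100000 times, with adjustment over the 67 pairs of probes of 1 gene. Further XBP1 and ATF4 pairs share 41, 48 and 50 bases, so probes of 1 gene are not independent readings.

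**Figure D2:**
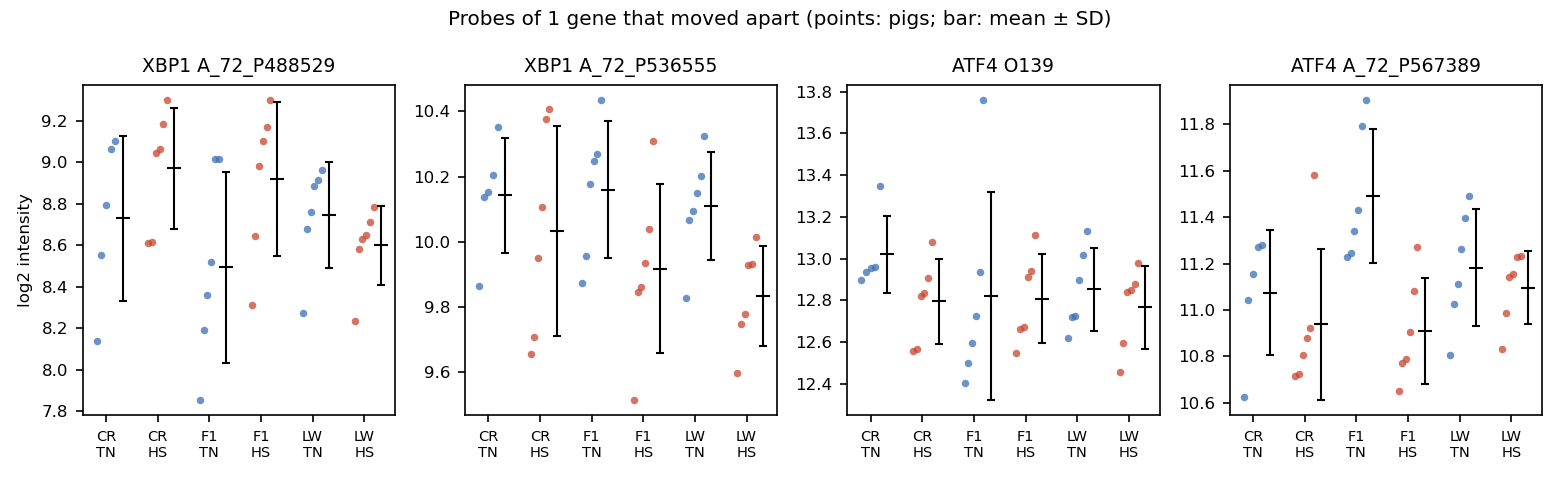
Log2 intensity by group at 2 XBP1 probes that share 36 bases and at 2 ATF4 probes. Points are pigs, placed from low to high within a group (TN blue, HS red), and the bar gives the mean ± SD. In F1 pigs A_72_P488529 had a higher mean under HS and A_72_P536555 a lower one, and A_72_P567389 was lower under HS, whereas the F1 means of O139 differed by -0.01.

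ATF6, the membrane-bound sensor that is cut in the Golgi to release a transcription factor, had 2 probes that pointed apart. The brightest (A_72_P014051) ran from 8.45 to 9.19 around 8.81 in F1 pigs under TN and from 8.06 to 8.68 around 8.31 under HS. In that breed it was down-regulated by 0.49 ± 0.16 (limma, adjusted p = 0.0176), a call that was lost without F1 TN replicate 2 (-0.42, adjusted p = 0.051) and with ATF6 probes averaged (-0.18, adjusted p = 0.224). Over breeds the difference was -0.16 ± 0.10 (adjusted p = 0.227), and group means in CR and LW pigs differed by -0.05 and 0.08. The other probe (A_72_P194322) gave 0.13 ± 0.08 over breeds (adjusted p = 0.184).

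CALR and CANX are lectin chaperones that hold glycoproteins until they are folded, CALR in the lumen and CANX in the membrane. No CALR probe passed over breeds, with differences of -0.12 ± 0.08, -0.15 ± 0.10 and -0.05 ± 0.08. In F1 pigs the brightest CALR probe (A_72_P128321) ran from 13.49 to 14.32 around 13.89 under TN and from 13.26 to 13.72 around 13.60 under HS, a difference of -0.31 ± 0.13 (limma, adjusted p = 0.0593). This difference passed in 4 of 35 fits that left out 1 pig, and adjusted p reached 0.186 over the 35. The pigs were F1 HS replicate 4 (-0.35, adjusted p = 0.0485), CR HS replicate 4 (-0.31, adjusted p = 0.0403), F1 TN replicate 5 (-0.35, adjusted p = 0.0455) and F1 TN replicate 6 (-0.39, adjusted p = 0.0206). It also passed with arrays scaled on the 75th percentile (-0.41, adjusted p = 0.0332), but was 0.0077 with the erythroid covariate (adjusted p = 0.978).

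The 3 CANX probes gave 3 answers. The brightest (A_72_P407258) differed by 0.02 ± 0.11 over breeds (limma, adjusted p = 0.902), with group means from 9.96 to 10.22. A_72_P444046 was up-regulated by 0.27 ± 0.08 (adjusted p = 0.0127), with 15 of 18 HS pigs above the TN mean of their breed. O14408 was down-regulated by 0.29 ± 0.09 (adjusted p = 0.0134), with 15 of 18 HS pigs below it. Across pigs the latter 2 probes had r = -0.41 (rho = -0.36, permutation test, adjusted p = 0.0521 over 67 pairs), so no direction can be given for CANX. In F1 pigs O14408 fell by 0.46 ± 0.15 (adjusted p = 0.0198), a call that was lost without F1 HS replicate 5 (-0.38, adjusted p = 0.0627), F1 HS replicate 6 (-0.39, adjusted p = 0.0611) or with array weights (-0.33, adjusted p = 0.0844).

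**Figure D3:**
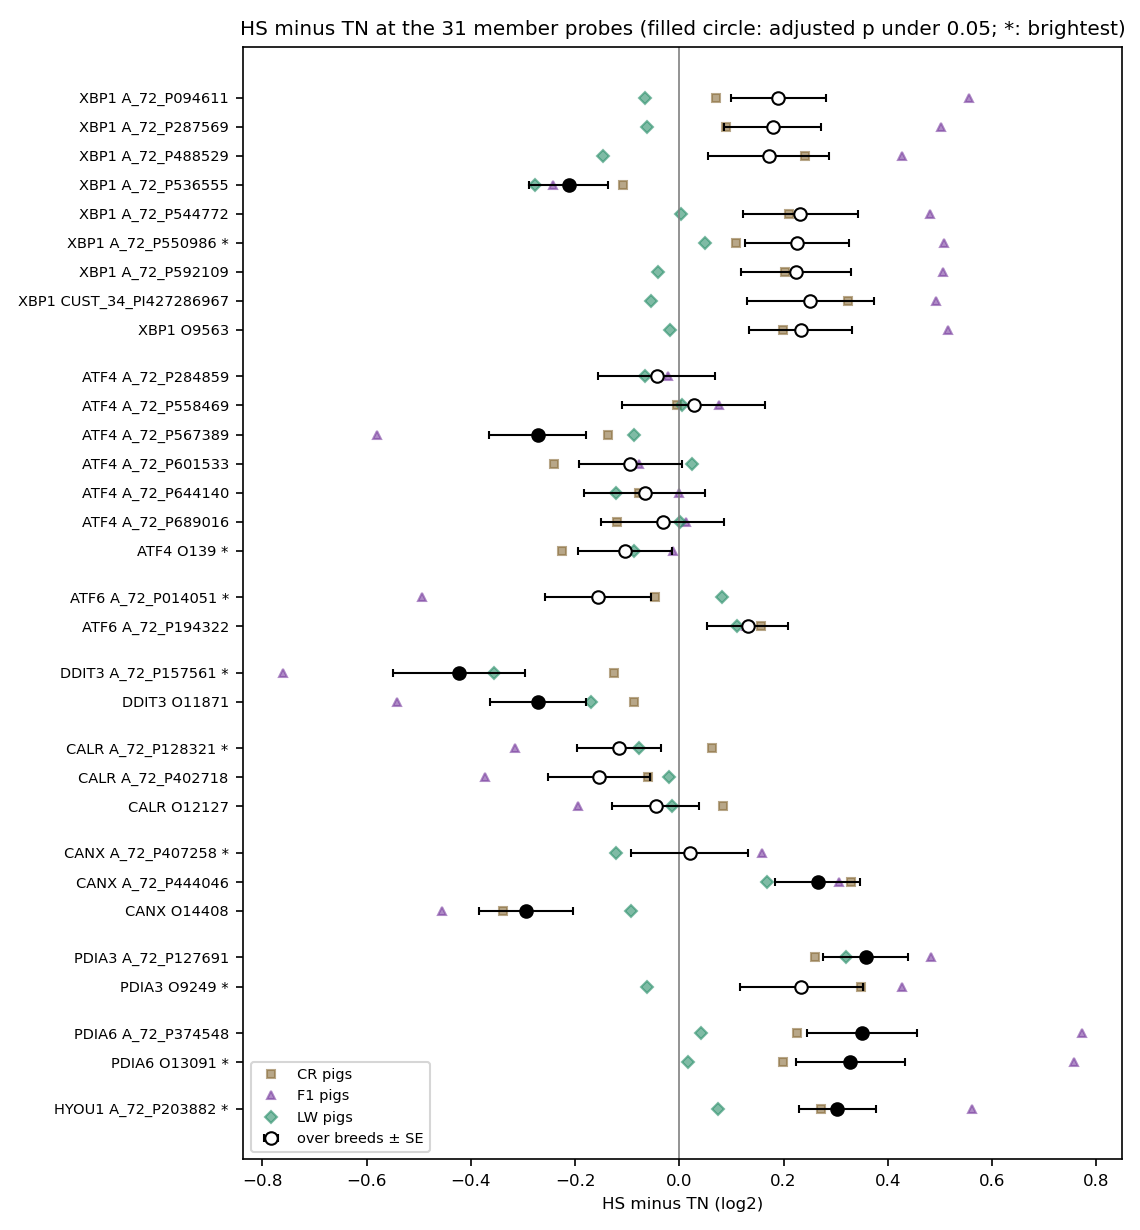
HS minus TN (log2) at each of the 31 probes, grouped by gene. Circles with bars are the estimates over breeds ± SE, filled where the adjusted p was below 0.05, and coloured marks are the differences within CR, F1 and LW pigs. The F1 mark is the outermost for DDIT3, PDIA6 and HYOU1, and probes of CANX lie on both sides of 0.

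Breeds were next taken one at a time. In F1 pigs 15 of the 31 probes were differentially expressed (48.4%), beside 38.7% of all probes. Of these, 10 were higher under HS, beside 20.8% of all probes, and 5 were lower, beside 17.9%. At least 1 probe passed for 8 of the 9 genes, all but CALR, but the share of all genes with a passing probe was not computed. Of the 15 probes, 6 were of XBP1, and ATF4 passed at 1 of 7 probes. With the probes of a gene averaged, 5 of 9 genes passed in F1 pigs, beside 40.1% of all genes. The median effect in F1 pigs was 0.13 over the 31 probes and 0.13 over all probes. In CR pigs 0 of 31 probes passed, beside 0% of all probes (limma, lowest adjusted p = 0.557, and 3 probes with an unadjusted p under 0.05), and in LW pigs 0 of 31, also beside 0% (lowest adjusted p = 0.564, and 2 probes).

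The interaction of breed and climate was significant for 0 of 31 probes, beside 0% of all probes (limma, lowest adjusted p = 0.278, with 6 of the 31 under 0.05 before adjustment). The PDIA6 effect in F1 pigs minus that in LW pigs was 0.74 ± 0.22, and minus that in CR pigs 0.56 ± 0.23 (adjusted p = 0.122 and 0.398). For HYOU1 the F1 effect minus the LW effect was 0.49 ± 0.16 (adjusted p = 0.122) and for DDIT3 it was -0.40 ± 0.29 (adjusted p = 0.407). That a probe passed in F1 pigs and not in CR or LW pigs therefore does not show that its effect differed between breeds.

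F1 pigs also differed between climates in red cell markers and in array brightness, which were given above. With the mean erythroid level of each pig added to the model, 0 of 31 probes passed over breeds (3 at an unadjusted p under 0.05, limma) and 0 in F1 pigs (9 at an unadjusted p under 0.05). Of all 39072 probes, 1 passed over breeds and 898 passed in F1 pigs. Under this covariate the F1 difference was 0.54 for PDIA6 (adjusted p = 0.0736), 0.34 for HYOU1 (adjusted p = 0.0953), 0.50 for XBP1 (adjusted p = 0.132) and -0.39 for DDIT3 (adjusted p = 0.309). Without F1 pigs 0 of 31 probes passed over breeds, with 4 at an unadjusted p under 0.05, beside 0 of 39072 probes. The brightest probes were then at 0.10 for PDIA6, 0.17 for HYOU1 and -0.25 for DDIT3, more than 1.5 times closer to 0 than with F1 pigs. PDIA3 A_72_P127691 was at 0.29 and XBP1 A_72_P536555 at -0.20, near their values with F1 pigs. Over breeds the erythroid covariate gave 0.15 for HYOU1 and -0.19 for DDIT3. The part of array brightness in the F1 differences was not tested. Arrays sat on 5 slides, each with HS and TN pigs. On slide 5 the HS pigs were CR and F1 pigs and the TN pigs were LW pigs, so no breed had both climates there. Levels were therefore compared within slides after subtracting breed means from the additive fit to all arrays, and the slides are not separate repeats. So taken, HYOU1, PDIA6 and XBP1 were higher under HS within all 5 slides at their brightest probe, by 0.16 to 0.38, 0.06 to 0.67 and 0.11 to 0.26. DDIT3 and ATF6 were lower within all 5, by -0.79 to -0.07 and -0.33 to -0.08.

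No probe of these genes passed a comparison between breeds. Averaged over climates, 0 of 31 probes differed between CR and LW pigs, beside 1.08% of all probes (limma, lowest adjusted p = 0.185, with 2 under 0.05 before adjustment). None passed between F1 and CR pigs, with 0 of 31 beside 0.184% of all probes (0 at an unadjusted p under 0.05), or between F1 and LW pigs, with 0 of 31 beside 0.0256% (1 at an unadjusted p under 0.05). When the 6 groups were ordered by mean level of the brightest probe, F1 pigs under TN were lowest for XBP1, CANX, PDIA3, PDIA6 and HYOU1 and highest for ATF6, DDIT3 and CALR. F1 pigs under HS stood at the opposite end for XBP1, PDIA6, HYOU1, DDIT3 and CALR. Of 45 pairs of neighbours in these orders, 2 lay further apart than the spread within groups, namely F1 and LW pigs under TN for PDIA6 (0.34 against an SD of 0.27) and F1 and CR pigs under TN for HYOU1 (0.22 against 0.19).

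Pairs of members were also compared from pig to pig. With group means removed, 15 of 36 pairs of the 9 genes passed a permutation test of Pearson's r (100000 permutations within groups, n = 35 pigs, adjusted over 36 pairs), 10 of them positive and 5 negative, and the median r over all pairs was 0.15. The share of passing pairs among other genes of the array was not computed. PDIA6 and HYOU1 had the highest r (0.78, rho = 0.77, adjusted p = 0.00036 for both, unadjusted p = 1e-05 being the smallest the permutations can give), and r was 0.70 without the 2 pigs farthest from the median of PDIA6. In each pair the 2 pigs left out were chosen on 1 gene of the pair, so they can differ between pairs. XBP1 went with PDIA3 at r = 0.57 (rho = 0.62, permutation test, adjusted p = 0.00396 and 0.00238) and, without the 2 pigs, at 0.57. ATF6 went against PDIA3 at r = -0.72 (rho = -0.72, permutation test, adjusted p = 0.00216 and 0.00126), or -0.62 without the 2 pigs. This relation was computed at their brightest probes only and not at their other probes. The 2 ATF6 probes had r = 0.26 with each other (rho = 0.22, permutation test, adjusted p = 0.146 over 67 pairs). For the 2 PDIA3 probes r was 0.38 (rho = 0.34, adjusted p = 0.0418).

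DDIT3 was low in pigs with high PDIA6, with r = -0.51 (rho = -0.53, permutation test, adjusted p = 0.0263 and 0.0165), or -0.50 without the 2 pigs. DDIT3 and CALR went together at r = 0.59 (rho = 0.51, permutation test, adjusted p = 0.00617 and 0.0219), or 0.41 without the 2 pigs. DDIT3 and its regulator ATF4 had r = 0.52 but rho = 0.15 (permutation test, adjusted p = 0.125 and 0.54). Here r was 0.18 without the 2 pigs farthest from the median of ATF4, so this relation rests on those pigs. With the erythroid list also removed, an alternative added after seeing the data, 12 of 36 pairs passed. The r of PDIA6 and HYOU1 was then 0.74 and that of ATF6 and PDIA3 was -0.75, while DDIT3 had r = -0.40 with PDIA6 and 0.40 with CALR.

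**Figure D4:**
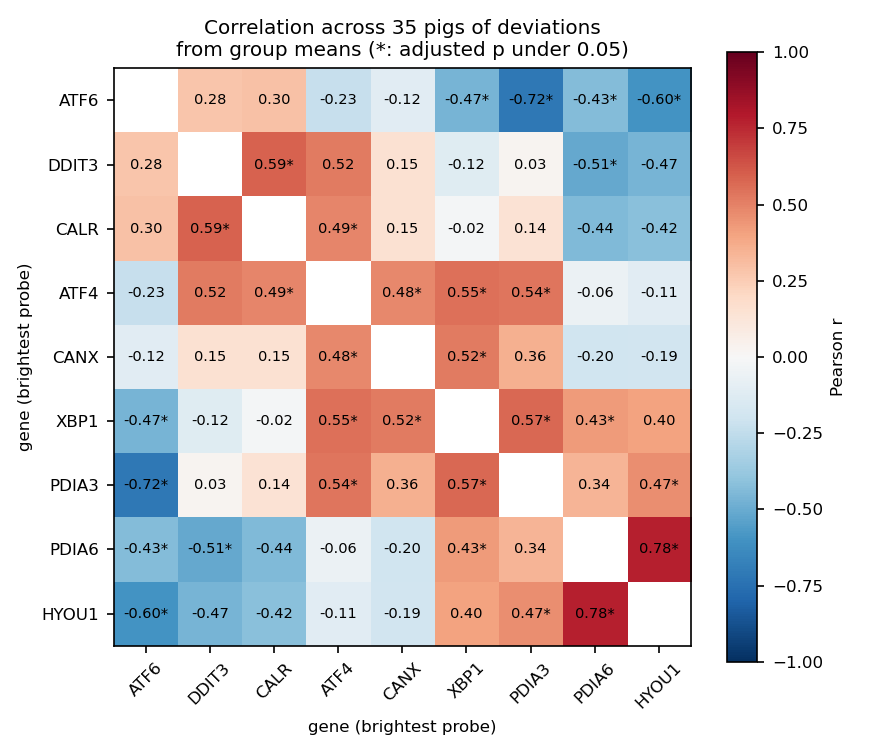
Pearson r across 35 pigs between the brightest probes of the 9 genes, after removal of the 6 group means, with an asterisk where the adjusted p was below 0.05. Rows and columns are genes, red is positive and blue negative. PDIA6 and HYOU1 have the highest value (0.78), and ATF6 against PDIA3 the lowest (-0.72).

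The other genes of the pathway were counted from 5 lists, each gene by its brightest probe. A direction given below is thus that of 1 probe. SEC62 had 13 probes in the table of log2 values, HSP90B1 9, and SDF2L1 and VCP 6 each, and their other probes are not described here. The shares set beside these counts are over all probes, dim ones included. Under a stricter filter on dim probes 36.9% of probes passed over breeds. Of 26 measured ER chaperones and foldases, 12 were higher and 2 lower under HS, with a median of 0.21 (limma, adjusted p below 0.05, beside 20.1% of all probes higher, 14.7% lower and a median of 0.06). SDF2L1, a partner of the chaperone HSPA5, was up-regulated by 0.42 ± 0.11 (adjusted p = 0.00448), PDIA5, a disulfide isomerase, by 0.39 ± 0.09 (adjusted p = 0.00279) and HSP90B1, the HSP90 of the ER, by 0.37 ± 0.09 (adjusted p = 0.00394). HSP90B1 ran from 11.46 to 12.13 in F1 pigs under TN and from 12.07 to 12.54 under HS. It ran from 11.75 to 12.45 and from 11.82 to 12.69 in CR pigs, and from 11.72 to 12.315 and from 11.71 to 12.42 in LW pigs. HSPA5 itself, the main chaperone that binds unfolded chains, differed by 0.13 ± 0.07 over breeds (adjusted p = 0.132), although it rose by 0.43 ± 0.10 in F1 pigs (adjusted p = 0.00126). QSOX1, a sulfhydryl oxidase, was down-regulated by 0.68 ± 0.18 (adjusted p = 0.0049) and CLGN, a calnexin-like chaperone, by 0.23 ± 0.08 (adjusted p = 0.0316). CLGN lost the call without F1 HS replicates 3, 5 or 6 or F1 TN replicates 2 or 4 taken 1 at a time (-0.21 to -0.20, adjusted p from 0.0511 to 0.0579).

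In ER-associated degradation, which pulls misfolded proteins back to the cytosol, 10 of 21 measured genes were higher and 0 were lower, with a median of 0.18. This count and the next stand beside 20.1% of all probes higher, 14.7% lower and a median of 0.06. SEL1L, a scaffold of the ubiquitin ligase complex, was up-regulated by 0.36 ± 0.10 (limma, adjusted p = 0.00759), HERPUD1, a component of the same complex, by 0.32 ± 0.06 (adjusted p = 0.00159) and VCP, the ATPase that extracts the substrates, by 0.29 ± 0.07 (adjusted p = 0.00456). HERPUD1 ran from 11.84 to 12.50 in F1 pigs under TN and from 12.54 to 12.64 under HS, and from 12.16 to 12.49 and from 12.47 to 12.69 in LW pigs. In CR pigs it ran from 12.16 to 12.36 under TN and from 12.13 to 12.87 under HS. Among 28 genes of the translocon, signal peptidase and oligosaccharyltransferase, which bring chains into the ER and glycosylate them, 10 were higher and 2 lower, with a median of 0.16. DDOST (0.42 ± 0.10, adjusted p = 0.0029), SSR1 (0.41 ± 0.13, adjusted p = 0.0136) and SSR2 (0.40 ± 0.10, adjusted p = 0.00335) were up-regulated, the first a subunit of the oligosaccharyltransferase and the others of the translocon-associated complex. SEC62, a translocon partner, and SRP54, of the signal recognition particle, were down-regulated by 0.72 ± 0.21 and 0.36 ± 0.11.

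The sensors and the ATF4 targets were divided. Of 9 measured sensors and regulators, 2 were higher and 3 lower, with a median of 0.00, beside 20.1% of all probes higher and 14.7% lower. ERN1, the sensor that splices XBP1, was down-regulated by 0.94 ± 0.21 (limma, adjusted p = 0.00221). Its levels ran from 10.09 to 11.69 in F1 pigs under TN and from 8.35 to 10.57 under HS. They ran from 9.97 to 11.36 and from 8.87 to 10.77 in CR pigs, and from 9.98 to 10.97 and from 10.05 to 10.75 in LW pigs. Without F1 pigs the ERN1 difference was -0.62 (adjusted p = 0.213). ATF6B, related to ATF6, fell by 0.45 ± 0.14 and EIF2AK4, a kinase that acts on the same initiation factor as PERK, was lower with adjusted p = 0.0259. EIF2AK4 was well above background on 19 of 35 arrays, with group means of 5.22 to 5.77, and its difference ran from -0.93 to -0.10 over the alternatives, so its size is not settled. CREB3, a membrane-bound transcription factor, rose by 0.27 ± 0.08 and MAP3K5, a stress kinase downstream of ERN1, by 0.21 ± 0.07, the latter without a call under array weights (0.14, adjusted p = 0.0912).

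Of 17 measured targets of ATF4, 1 was higher and 3 lower, with a median of -0.11, beside 20.1% of all probes higher and 14.7% lower. SLC3A2, an amino acid transporter chain, fell by 0.53 ± 0.19 (limma, adjusted p = 0.0331), and CHAC1, an enzyme of glutathione breakdown, by 0.34 ± 0.09 (adjusted p = 0.00503). SHMT2, of mitochondrial serine metabolism, was lower with adjusted p = 0.00432, but it was well above background on 26 of 35 arrays and its difference ran from -0.97 to -0.16 over the alternatives. SLC3A2 lost the call without CR TN replicate 2 or 3, LW TN replicate 4 or F1 HS replicate 5 (-0.50 to -0.47, adjusted p from 0.0526 to 0.0617). CHAC1 was not well above background on 1 CR and 1 F1 array under HS, and its difference was -0.83 with arrays scaled on the 75th percentile. NUPR1, a stress-induced nuclear protein, rose by 0.66 ± 0.25 (adjusted p = 0.0414), with adjusted p up to 0.0757 and no call in 15 of 35 fits that left out 1 pig, and it also lost the call with normexp correction (0.59, adjusted p = 0.050002) and without a filter on dim probes (0.66, adjusted p = 0.0605). Markers of blood cells other than the erythroid list were counted too, beside 20.1% of all probes higher and 14.7% lower. Of 4 measured plasma cell markers 1 was higher and 1 lower (median 0.26), of 7 B cell markers 3 were higher and 0 lower (0.28), of 8 monocyte markers 3 and 0 (0.08), and of 10 T cell markers 3 and 0 (0.12). None of 11 neutrophil markers (-0.23) or 6 platelet markers (0.38) passed. Of 6 cytotoxic cell markers 0 were higher and 1 was lower (-0.05). Their part in the list counts was not tested. Over all probes of the 5 lists 110 of 246 passed over breeds (83 higher and 27 lower), beside 34.8% of all probes (20.1% higher and 14.7% lower). None of the 246 passed with the erythroid covariate (60 at an unadjusted p under 0.05) or without F1 pigs (52), where 1 and 0 of 39072 probes passed.

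**Figure D5:**
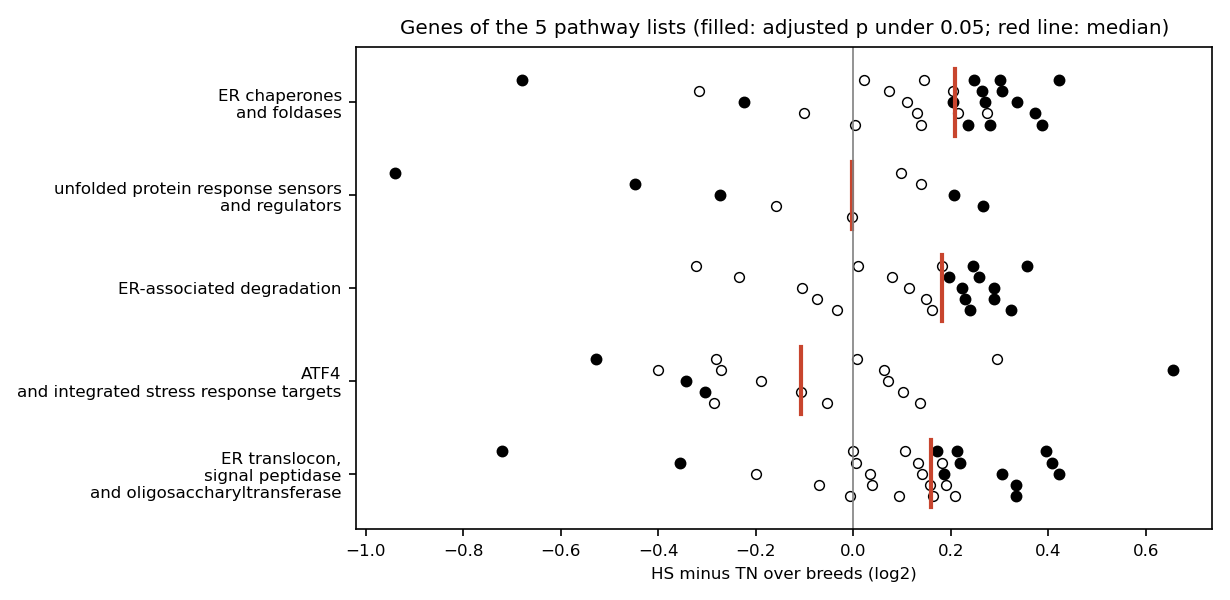
HS minus TN over breeds (log2, horizontal axis) for each measured gene of the 5 pathway lists, filled where the adjusted p was below 0.05, with the median of each list as a red line. Points are spread vertically within a list for legibility. Medians lie at 0.21, 0.00, 0.18, -0.11 and 0.16 from top to bottom.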

How the data were processed

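The members and the gene lists were chosen with earlier results of these data known. Each pig had 1 one-colour array of a porcine Agilent design (60-base probes). Per the file headers and labels, arrays were read with Agilent Feature Extraction 10.10.1.1, and the deposited scanner files give the median and the processed intensity of each spot. The authors also deposited log2 values, obtained by quantile normalization of that median intensity and a filter on expressed probes. These 39072 probes were analysed as deposited. Groups came from the labels. A member was any probe that was not a control and whose gene name was one of the 10, and its brightest probe over all arrays stood for a gene in the named comparisons. From each list, the 3 largest rises and falls past the threshold were named. HS was compared with TN over breeds in an additive model of breed and climate, and within breeds from the 6 group means, by limma 3.58.1 (R 4.3.3) with Benjamini-Hochberg adjustment and a threshold of 0.05. Random effects that the study's own model held (pen, slaughter, parents) were not fitted. The methods state that littermates, pens and slaughter days were shared, with pen and slaughter day each lying within 1 climate, so pigs of a group are not fully independent, p-values may be too small, and the counts of calls, those over all probes included, may be too large. The fit was tested on simulated data over 39072 probes, where for HS minus TN over breeds 29.4% of changes of 0.3, 65.2% of 0.5 and 98.5% of 1 (log2) were recovered, and within F1 pigs 0%, 25.8% and 81.8%. Only 68, 66 and 66 probes carried these changes, and the simulated noise was independent between pigs. Over breeds 34.8% of all probes passed in the real data, so these rates need not hold for them. Correlations were computed in Python 3.11.15. Alternatives were values recomputed from the scanner intensity, scaling on the 75th percentile, normexp correction (offset 50), 2 other filters, the slide as a block, array weights, gene means, an erythroid covariate, and leaving out each pig or the F1 pigs. Recomputed and deposited log2 values had a median absolute difference of 0.02. Precision is limited by the number of arrays, which have no read depth. Each pig was a separate animal. Gene sequences, genome positions and the place of probes in transcripts were not analysed here.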

Additional observations from a re-analysis of the deposited data

Results flagged for a closer look

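At the brightest probe of each gene, 54 combinations of gene and group were examined with Dixon's criterion for a pig far from its group at 95% confidence, which chance meets in about 1 in 20 groups. In 6 a pig stood apart. The level of ATF4 was 13.35 in CR TN replicate 3, high for its group. ATF6 was low in LW TN replicate 3 (7.70). PDIA3 was low in CR TN replicate 2 (8.48), in CR HS replicate 1 (8.64) and in LW HS replicate 1 (8.48). PDIA6 was high in F1 HS replicate 1 (12.36), and the 2 F1 groups remained without overlap when that pig was left out, since it was the highest of the HS group. No call for PDIA6 was lost when any 1 pig was left out (adjusted p from 0.00509 to 0.029 over breeds, limma).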

How the results depend on the processing

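No paired analysis was possible because the labels give no replicate numbers, which were set in accession order and pair no pigs. Among the counts for the genes of interest, averaging probes of a gene gave 4 of 9 genes over breeds (3 higher, 1 lower, beside 35.8% of all genes), 5 of 9 in F1 pigs (4 higher, 1 lower, beside 40.1%) and 50 of 101 for the pathway lists, with fewer features tested by construction. With the erythroid covariate these counts were 0, 0 and 0, and without F1 pigs they were 0 over breeds and 0 for the lists. The cause was not tested. Leaving out 1 pig gave 9 to 15 probes over breeds, 12 to 20 in F1 pigs, 95 to 136 for the lists, and 0 to 0 in CR pigs, LW pigs, the interaction and the breed comparisons. Of 36 correlations, 15 passed with scaling on the 75th percentile, 18 with the slide removed and 11 without 2 pigs chosen for each pair.

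The following differences changed sign, none of which passed the test. With 75th percentile scaling ATF4 was 0.048 in LW pigs. With the slide as a block ATF6 was 0.010 in CR pigs and ATF4 0.039 in F1 pigs. With array weights ATF4 was 0.021 in F1 pigs, ATF6 -0.029 and PDIA3 0.10 in LW pigs. With gene means CANX was -0.0028 over breeds, ATF6 0.055 in CR pigs, XBP1 -0.068 and PDIA3 0.13 in LW pigs. With the erythroid covariate ATF6 was 0.030 and CALR 0.073 over breeds, ATF6 0.076 and DDIT3 0.046 in CR pigs, ATF4 0.17 and CALR 0.0077 in F1 pigs, and CALR 0.0020 and PDIA6 -0.037 in LW pigs. Without F1 pigs ATF6 was 0.020 and CANX -0.053. When 1 pig was left out, ATF4 ran from -0.095 to 0.18 in F1 pigs, ATF6 from -0.19 to 0.11, CALR from -0.043 to 0.15 and CANX from -0.069 to 0.12 in CR pigs, CANX from -0.032 to 0.051 over breeds, and ATF6 from -0.033 to 0.13, PDIA3 from -0.14 to 0.086 and PDIA6 from -0.049 to 0.098 in LW pigs. CANX A_72_P444046 passed in F1 pigs with 75th percentile scaling (0.37, adjusted p = 0.0456, limma) and with the slide as a block (0.38, adjusted p = 0.0208).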
